A study of Drosophila melanogaster with 14 samples.

Results

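The testes of bam mutant males were compared with those of wild-type (wt) males of Drosophila melanogaster. The comparison rests on 4 of the 14 libraries of the series, 2 per genotype, chosen by the genotype in their labels. Each library held the RNA of 50 adult testes from males aged 3 days, kept at 23 °C, and the study's design text calls the libraries of a genotype biological replicates. The sources used here name neither the allele of bam nor the wild-type strain. A further 4 libraries, 2 of mip40/bam double mutants and 2 of CG9879 mutants of the same age, served as a comparison that shares no library with the first; a testis without bam function is there set against one that forms spermatids, but both genotypes carry a further mutation and both were quantified with another annotation.

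The bam gene acts in spermatogonia, germ cells at the start of the lineage, and stops their mitotic divisions. Without it they keep dividing and do not become spermatocytes, which grow and enter meiosis, or spermatids, which build the sperm tail. Many Drosophila housekeeping genes have a duplicate copy that is known for its expression in the testis, so that a mitochondrial enzyme, a proton pump or a translation factor can be encoded by one gene in most of the body and by another in male germ cells. The comparison of bam with wt asks which genes and which copies each kind of testis uses, here for groups other than the usual stage markers.

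Values are FPKM, fragments scaled to transcript length and to library size. A gene was called where limma gave an adjusted p under 0.05 for log2(FPKM + 1), over 13076 genes tested, so a fold change understates the change of genes near 0. The confidence bounds of the FPKM values imply 4910000 and 4460000 fragments in the bam libraries and 3210000 and 3370000 in the wt libraries. These numbers assume that the bounds hold counting error only, and they can be too low. The median difference between the 2 libraries of a genotype was 0.11 in bam and 0.14 in wt on the log2 scale. In bam against wt, 5792 genes (44.3%) were called higher and 4500 (34.4%) lower, with a median log2 fold change of 0.22 over all genes tested. With libraries rescaled by the median of ratios, all values of bam shifted by -1.30 against wt on the log2 scale and the median of all genes became -0.58. The genes called higher with both scalings were 3454 (26.4%), and those called lower with both were 4494 (34.4%). A rise is therefore stated below with its value under the other scaling where that value turns its direction.

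The bam gene itself had 2.91 and 0 FPKM in bam and 3.14 and 2.81 in wt, a difference that was not called (adjusted p = 0.0912, limma), and since it shares exons with a neighbouring gene its level checks the genotype poorly. Stage markers checked it instead. The germ cell helicase gene vas, which also shares an exon with another gene, had 538 and 530 FPKM in bam against 15.1 and 16.5 in wt. The spermatogonial marker zpg, which shares none, had 339 and 303 FPKM against 7.72 and 5.86. Another, bgcn, had 83.0 and 78.9 against 39.5 and 37.9, a rise of 1.05 that became -0.23 with median-of-ratios scaling. The spermatocyte gene can had 0.302 and 0.278 FPKM against 15.7 and 15.4, and the spermatid gene dj had 0.738 and 0 against 1860 and 1738. These levels do not overlap between genotypes. Not every early spermatocyte gene was low, however: twe, the meiotic Cdc25 phosphatase gene, had 42.2 and 41.9 FPKM in bam against 99.5 and 98.9 in wt, and the tMAC gene aly had 18.1 and 18.3 against 14.1 and 10.7, a rise of 0.53 that became -0.70 with median-of-ratios scaling. In whole testes, fewer cells of a type and less RNA per cell cannot be told apart, which holds for every value below.

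An exact 0 in these tables can be a failed estimate. Of the genes with at least 20 FPKM in bam, 235 were listed at 0 in both wt libraries, and 175 of these (74.5%) share an exon with another gene, against 4168 (31.9%) of all genes tested. They include genes that most cells use, such as CoVIIc, a subunit of cytochrome c oxidase, and Surf6, a ribosome assembly factor. Of the genes with at least 20 FPKM in wt, 824 were listed at 0 in both bam libraries, and 309 of them (37.5%) share an exon. Genes listed at 0 are named as such and given no fold change of their own. They do enter the counts and medians of the lists and the ratios of the pairs, through the pseudocount.

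Most general genes and their duplicates went in opposite directions. For 66 pairs of a general gene and a duplicate the log2 ratio of duplicate to general gene was formed within each library, a measure that depends on library scaling only through the pseudocount of 1. The ratio was lower in bam in 62 pairs (93.9% of the pairs), higher in 1 and not called in 3, with a median difference of -8.65 on the log2 scale. Among the 62, the difference ranged from -2.89 to -11.72. The duplicates themselves were called lower in bam in 61 of 66 cases and higher in 5, where 34.4% of all genes were lower. Their median level was 0.18 FPKM in bam and 128 FPKM in wt. The 52 general genes went the other way: 49 were higher in bam and 2 lower, with medians of 167 FPKM in bam and 33.3 FPKM in wt. Of the 49, 37 were also higher with median-of-ratios scaling.

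In every one of the 66 pairs the duplicate lay below its general gene in both bam libraries. In 50 pairs the duplicate lay above it in both wt libraries, so the order of the copies differed between the genotypes in those 50. The pairs were listed with earlier results of these data known, and the list is not complete: the aldolase duplicate CG5432 (Ald2), with 0 and 0.0769 FPKM in bam against 248 and 249 in wt, was noticed only after its values were seen.

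**Figure D1:**
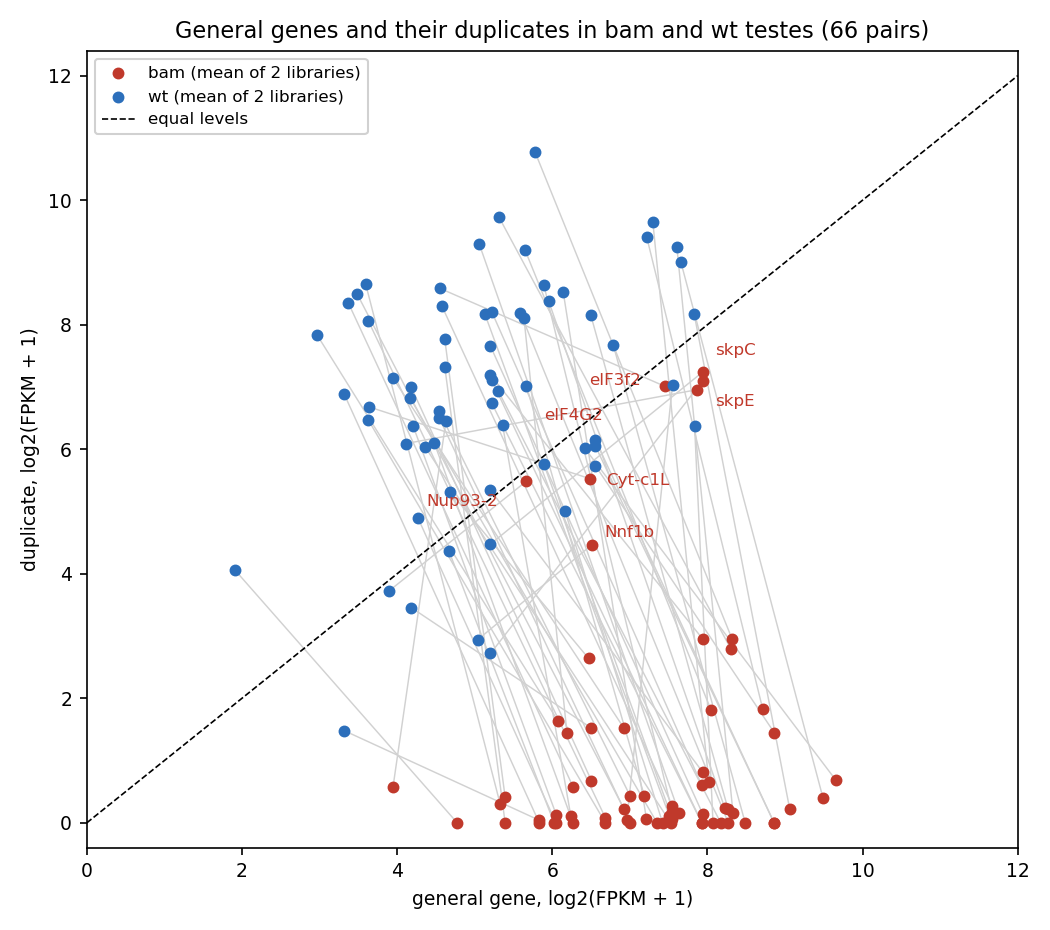
Level of each general gene (horizontal axis, log2(FPKM + 1)) against the level of its duplicate (vertical axis, same scale) for 66 pairs. Each pair is a red point for bam and a blue point for wt, both means of 2 libraries, joined by a grey line; the dashed line marks equal levels. All 66 red points lie under the dashed line, and most lie near 0 on the vertical axis, while in 50 pairs the duplicate is above the general gene in both wt libraries.

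All 29 mitochondrial pairs had a lower ratio in bam, with a median difference of -9.38 on the log2 scale. Cytochrome c, the electron carrier between complexes III and IV, has the copies Cyt-c-d and Cyt-c-p, which are neighbours on chromosome arm 2L. Cyt-c-d had 7.16 and 4.83 FPKM in bam and 880 and 816 in wt. Cyt-c-p had 288 and 346 in bam and 47.7 and 31.5 in wt. Each copy was thus high in the genotype where the other was low, with no overlap, and the log2 ratio of Cyt-c-d to Cyt-c-p was lower in bam by a difference of -9.93 (SE 0.30, adjusted p = 1.23e-11, limma). The copies of cytochrome c oxidase subunit 4 did the same. CG10396 (COX4L) had 3.03 and 2.04 FPKM in bam against 623 and 548 in wt, and CoIV had 236 and 295 against 47.6 and 51.1, a ratio difference of -9.78 (SE 0.23).

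Enzymes of the mitochondrial matrix followed. CG6255, a duplicate of the succinyl-CoA synthetase alpha subunit, had 0.208 and 0.124 FPKM in bam and 365 and 355 in wt. Scsalpha, the general copy, had 113 and 129 FPKM in bam and 10.16 and 10.24 in wt. The ratio difference was -11.72 (SE 0.21), close to that of the next pair, and with duplicates near 0 in bam both depend on the pseudocount. The glutamate dehydrogenase duplicate CG4434 (bb8), named for the big bubble mutant defect of spermatid mitochondria, had 0.149 and 0.0853 FPKM in bam against 649 and 607 in wt, while Gdh had 184 and 213 against 34.8 and 30.1 (-11.71, SE 0.19). The succinate dehydrogenase iron-sulphur subunit switched from SdhB in bam, with 76.9 and 75.8 FPKM against 9.16 and 9.58 in wt, to CG7349 (SdhBL) in wt, with 317 and 332 FPKM against 0.670 and 0.321 in bam.

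The mitochondrial membranes and folding machinery had the same pattern. Porin2, a copy of the outer membrane channel, had 0.553 and 0.131 FPKM in bam and 517 and 511 in wt; porin had 722 and 713 in bam and 199.8 and 202 in wt. The import receptors tomboy20 and tomboy40 had ratio differences of -9.81 and -7.21 to Tom20 and Tom40. Hsp60B, a copy of the mitochondrial chaperonin, had 0.645 and 0.5 FPKM in bam and 782 and 830 in wt, whereas Hsp60 had 259.9 and 257 FPKM against 150.3 and 162, a rise of 0.72 that became -0.57 with median-of-ratios scaling. Cyt-c1L (CG14508), the cytochrome c1 copy, kept a level in bam: 43.5 and 46.9 FPKM against 100.3 and 103 in wt, with the smallest difference of the mitochondrial pairs, -4.01 (SE 0.18).

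Glycolytic enzymes went both ways. All 9 glycolytic pairs had a lower ratio in bam, with a median difference of -9.82. The hexokinase copy Hex-t2 had 0.264 and 0 FPKM in bam and 405 and 393 in wt, a ratio difference of -10.13 to Hex-A. CG9010, a copy of glyceraldehyde-3-phosphate dehydrogenase, had 0.462 and 0 FPKM against 315 and 313, and Pglym87, a phosphoglycerate mutase copy, had 0.350 and 0.140 against 419 and 387. Pyruvate kinase has 3 listed copies, CG7069, CG2964 and CG11249, of which the last 2 were listed at 0 in both bam libraries; CG7069 had 0.890 and 0.224 FPKM in bam and 293 and 296 in wt.

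The 6 general enzymes with a listed copy (Hex-A, Gapdh1, Pgk, Pglym78, PyK and ImpL3, the lactate dehydrogenase gene) were all called higher in bam, with a median log2 fold change of 2.28, or 1.01 with median-of-ratios scaling. Pgk had 114.8 and 126 FPKM in bam and 14.6 and 14.3 in wt, and Gapdh1 had 178 and 195 against 23.9 and 21.9, both a log2 fold change of 2.97. Of the 6 genes without an entry on the list of pairs, 1 was higher (Gapdh2, 2.16) and 5 were lower, with a median of -1.30, or -2.59 with the other scaling. Tpi, triose phosphate isomerase, had 31.3 and 41.6 FPKM in bam and 297 and 295 in wt (-3.0, SE 0.14, adjusted p = 2.26e-08, limma). Pfk, phosphofructokinase, had 30.8 and 30.5 FPKM against 211 and 229 (-2.80, SE 0.06). Ald, Pgi and Eno had smaller falls of -1.49, -1.10 and -0.66 on the log2 scale. Presence on the list of pairs is not the same as having a copy: aldolase has the duplicate CG5432, named above, which the list lacks, so Ald is an enzyme that has a copy and still fell, and Gapdh2 is itself 1 of several genes for its step. The division by the list was made after the values were seen and is given without a test.

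**Figure D2:**
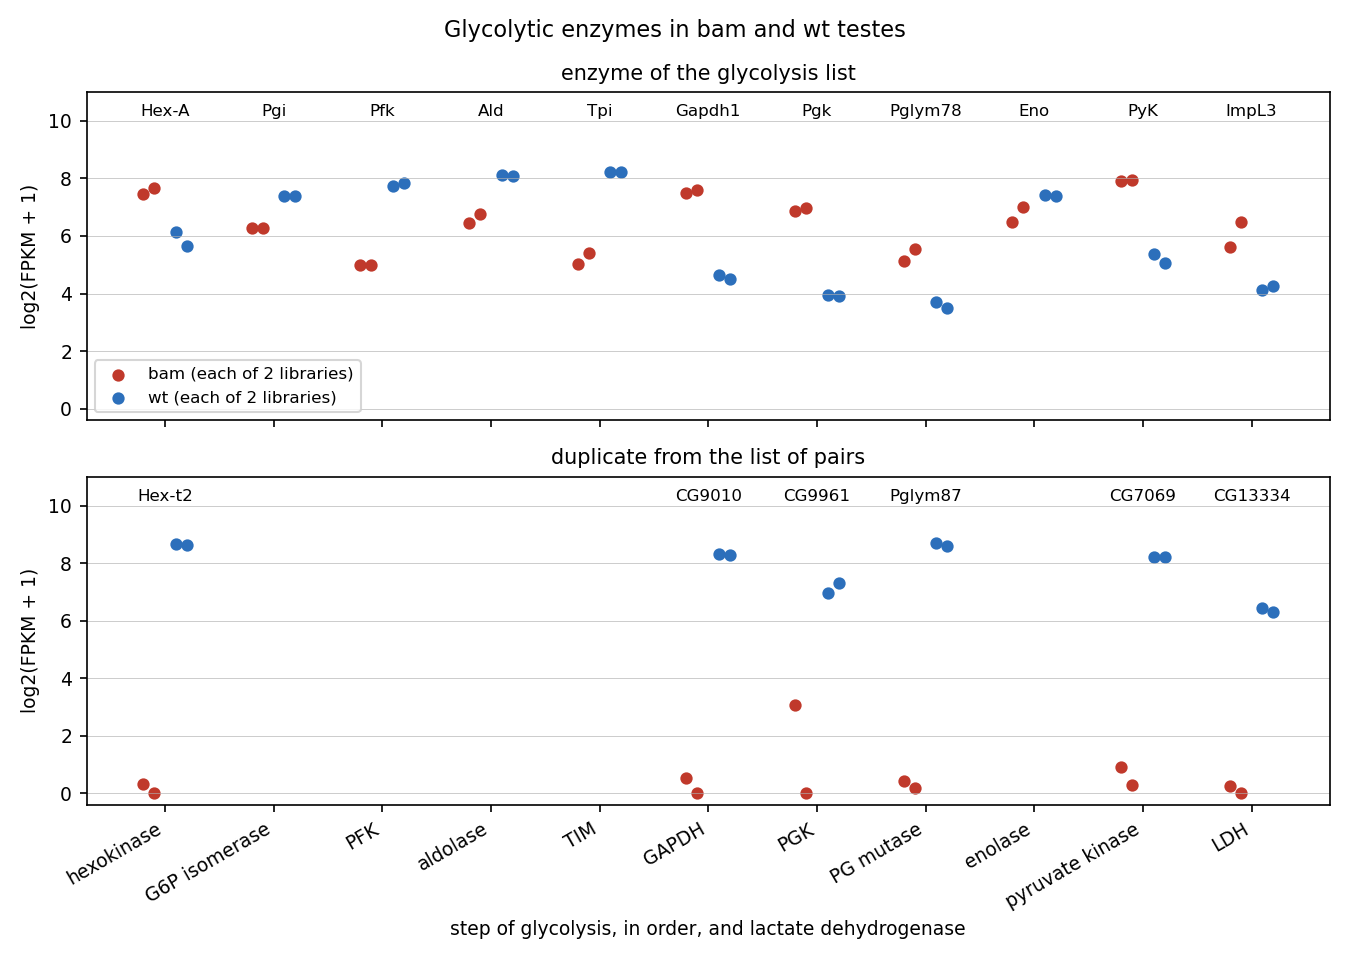
Level of glycolytic enzyme genes in pathway order (horizontal axis) as log2(FPKM + 1) (vertical axis), each point 1 library, red for bam and blue for wt. In the upper panel, the enzymes Pgi, Pfk, Ald, Tpi and Eno are lower in bam and the other 6 are higher; in the lower panel all 6 duplicates shown are near 0 in bam, apart from 1 library of CG9961, and high in wt.

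Other parts of energy metabolism were divided by the same list of pairs, also after the values were seen. In the citric acid cycle, 5 of 6 general genes with a listed copy were higher in bam and 1, SdhA, was lower, with a median of 2.98; of the 5, kdn had a rise of 1.07 that became -0.21 with median-of-ratios scaling. Of the 15 without a listed copy, 7 were higher, 6 lower and 2 not called, with a median of -0.09. The lower ones included CG5261, the E2 subunit of pyruvate dehydrogenase, with 63.2 and 68.2 FPKM in bam and 189.9 and 204 in wt (-1.57), and CG6439, a subunit of isocitrate dehydrogenase, with 84.5 and 87.1 against 245 and 247 (-1.51). Among subunits of the respiratory chain and ATP synthase, all 13 with a listed copy were higher, with a median of 2.27, or 0.99 with median-of-ratios scaling. Of the 33 without a listed copy, 24 were higher, 3 lower and 6 not called, with a median of 0.76 that became -0.53. ATPsyn-beta, the catalytic subunit of ATP synthase, had 773 and 843 FPKM in bam and 88.1 and 80.9 in wt (3.24), while its copy ms(3)72Dt (ATPsynbetaL) had 0.586 and 0.626 against 63.5 and 64.4.

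The V-ATPase, the proton pump that acidifies vesicles, lysosomes and the acrosome, has general subunit genes and further copies. Of 15 other copies tested, 14 were lower in bam and 1 higher, with a median log2 fold change of -5.0, and 6 were listed at 0 in both bam libraries. Over the 9 copies above 0 in each genotype the median was -2.68. Of 17 general subunits, 16 were higher and 1, VhaM9.7-a, was lower, with a median of 1.52 that became 0.24 with median-of-ratios scaling. The copies did not always exceed the general gene in wt: Vha16-1 had a mean of 93.5 FPKM there, above its copies Vha16-2, Vha16-3 and Vha16-5 at 70.1, 65.7 and 52.5. In the catalytic subunit A the order differed between genotypes. Vha68-3 had 0.0516 and 0.121 FPKM in bam and 276 and 297 in wt, and Vha68-2 had 167 and 197 in bam and 34.1 in both wt libraries, a ratio difference of -10.42 (SE 0.20, adjusted p = 4.40e-13, limma). The membrane subunit copy Vha100-3 was at 0 in each bam library, with 119.9 and 116 FPKM in wt, and VhaM9.7-d was listed at 0 in bam and had 184 and 158 FPKM in wt.

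Not every copy was lost. The 3 subunits Vha36-3, VhaAC39-2 and Vha68-1 kept 1.53 to 25.8 FPKM in bam against 9.69 to 42.6 in wt. General subunits with a listed copy rose with a median of 2.30 (7 of 7 higher) and those without had a median of 0.67 (9 of 10 higher), which became 1.01 and -0.62 with median-of-ratios scaling.

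The Skp1 family, adaptors that link F-box proteins to the cullin of SCF ubiquitin ligases, went in both directions. skpA, the general gene, had 235 and 254.7 FPKM in bam and 40.2 and 32.0 in wt. skpC had 148 and 153 against 19.6 and 23.2, and skpE had 128 and 146 against 4.96 and 6.29; both were therefore high in bam, and the ratio of skpE to skpA was higher there by 1.64 on the log2 scale (SE 0.23, adjusted p = 2.79e-05, limma), the sole pair of the 66 called in that direction. For skpC the ratio differed by 0.03 (adjusted p = 0.923, limma), since both genes rose. In contrast skpB had 8.23 and 5.49 FPKM in bam against 142 and 148 in wt, skpD 0.969 and 0.569 against 40.01 and 39.2, and skpF 0.216 and 0 against 211 and 191.

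The genes skpD, skpC and skpE lie close together on the X chromosome (release 6: 19812729 to 19813384, 19816072 to 19816700 and 19823368 to 19824080), so a copy that was low in bam lies beside 2 that were high. Their sequences were not compared here, and how reads were divided among the copies is uncertain. Other parts of these ligases also moved. Cul3, the scaffold of another ligase class, had 109 FPKM in each bam library and 461 and 469 in wt (-2.08), and ntc, an F-box gene known from spermatid individualization and chosen after its values were seen, had 20.9 and 17.3 against 314 and 336 (-4.02). Cul4 rose, with 114 and 113 FPKM against 15.9 and 17.3 (2.70). The RING subunit copy Roc1b was listed at 0 in both bam libraries, with 142 and 104 FPKM in wt, and shares an exon with another gene.

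**Figure D3:**
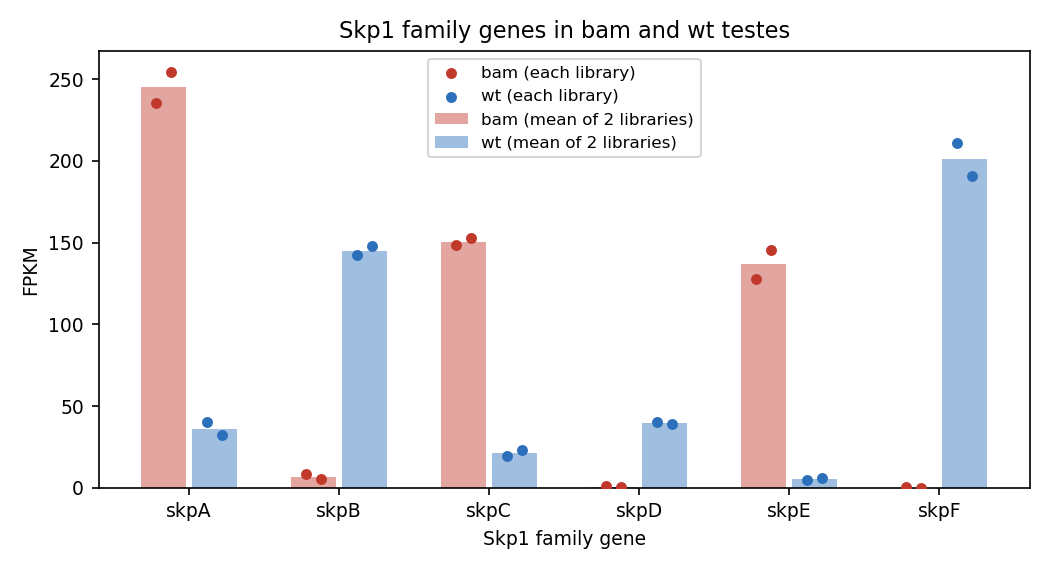
FPKM (vertical axis, linear) of the 6 Skp1 family genes (horizontal axis) in bam (red) and wt (blue); bars are means of 2 libraries and points are the libraries. skpA, skpC and skpE are high in bam and skpB, skpD and skpF are high in wt.

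Translation factors formed a further set of pairs. CG4810 (eIF3d2) and CG10881 (eIF3g2), copies of subunits of the initiation factor eIF3, had 0 in each bam library and 112 and 113 FPKM, and 69.9 and 59.9 FPKM, in wt. CG8335 (eIF3f2) behaved differently from them: it had 123 FPKM in each bam library and 68.7 and 65.7 in wt, a rise of 0.87 that became -0.42 with median-of-ratios scaling. Its general gene CG9769 had 229.7 and 236 FPKM in bam and 18.9 and 14.0 in wt (3.76), so that the ratio was still lower in bam by -2.89 (SE 0.17). The nuclear pore copy Nup93-2 and the kinetochore copy Nnf1b rose together with their general genes, and their ratios differed by -0.01 (adjusted p = 0.959) and 0.05 (adjusted p = 0.908, limma). The SE of these ratio differences was 0.16 and 0.35, so a smaller difference in either direction was not detectable.

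Small metabolic families had members on both sides. TrxT, a thioredoxin known from the testis, had 9.82 and 4.57 FPKM in bam and 1757 and 1734 in wt. Trx-2 had 331 and 306 in bam against 57.9 and 50.3, and dhd, the thioredoxin known from the female germline, had 87.5 and 95.2 against 7.80 and 9.11 (3.29). Trxr-2, a thioredoxin reductase, was at 0.0740 and 0.0883 FPKM in bam and 50.8 and 58.4 in wt. Of 13 genes of this family, 7 were higher, 5 lower and 1 not called, shares near those of all genes tested (44.3% higher, 34.4% lower).

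Iron and copper handling had 5 falls and 4 rises among 13 genes, again near the background. Fer3HCH, the mitochondrial ferritin chain, was at 0 in each bam library, with 83.0 and 80.5 FPKM in wt, whereas the secreted ferritin chain Fer1HCH had 262 and 275 against 210.3 and 246 and was not called. The copper transporter Ctr1C was listed at 0 in bam with 33.2 and 24.8 FPKM in wt, and ATP7, the copper pump, had 14.9 and 18.5 against 100.6 and 98.9 (-2.52). Among phosphatases of the PP1 and PP2A families 8 were higher, 5 lower and 2 not called, which is also near the background. Those lower were Pp1-13C, PpY-55A, PpN58A, PpD5 and PpD6, each under 0.4 FPKM in bam; Pp1-13C had 129.7 and 134 FPKM in wt. PpV had 70.3 and 65.9 FPKM in bam and 5.05 and 4.99 in wt (3.52), and mts, the catalytic subunit of PP2A, chosen after its values were seen, had 511 and 528 against 63.8 and 51.4 (3.16).

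The machinery of cell growth was high in bam. Of 32 ribosome biogenesis genes, 30 were higher and 1 lower, with a median log2 fold change of 3.03 beside 0.22 for all genes tested; 27 were also higher with median-of-ratios scaling, where the median was 1.95 beside -0.58. NHP2, a box H/ACA snoRNP protein that guides pseudouridylation of rRNA, had 279 and 307 FPKM in bam and 11.3 in each wt library (4.58, SE 0.18, adjusted p = 8.57e-09, limma). Nop56 and nop5, core proteins of the box C/D snoRNPs, had 273 and 307 FPKM, and 276 and 301 FPKM, in bam against 13.0 and 14.9, and 14.5 and 13.6, in wt. Kr-h2, which is on the list but whose part in ribosome biogenesis was not checked, fell, with 80.2 and 88.4 FPKM against 114 and 116 (-0.44). Surf6 and Nle were listed at 0 in both wt libraries and share exons with other genes.

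Of 20 aminoacyl-tRNA synthetase genes, 16 were higher and none lower, with a median of 2.66 (1.43 with the other scaling), and the 16 were the same under both. Aats-his had 154 and 155.9 FPKM in bam and 9.15 and 9.24 in wt (3.93), and Aats-val had 65.0 and 63.1 against 6.74 and 7.16 (3.03). Among the 4 that were not called, Aats-trp had 74.1 and 74.6 FPKM against 68.8 and 57.9, and Aats-met, of the mitochondrial enzymes, had 12.39 and 9.26 against 11.99 and 13.4. Of 32 initiation and elongation factors 25 were higher and 4 lower, with a median of 1.93 (0.64). Ef1gamma, a subunit of elongation factor 1, had 1281 and 1170.0 FPKM in bam and 89.4 and 89.3 in wt (3.76).

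Protein folding in the cytosol rose with it: all 8 subunits of the chaperonin CCT on the list were higher in bam. T-cp1 had 266 and 279 FPKM in bam and 31.3 and 34.7 in wt (3.01). On the same list Hsp60B, Hsp60C and Hsp60D were lower, Hsp60C with 5.31 and 6.71 FPKM against 1159 and 1215. Splicing factors were higher in 33 of 35 cases, with a median of 2.41 (1.19). Prp19, a ubiquitin ligase of the spliceosome, had 95.4 and 99.4 FPKM in bam and 4.49 and 4.88 in wt (4.11). U2af50, with 67.5 and 62.1 FPKM against 56.0 and 57.8, was not called. The sole gene lower was tra2, the sex determination and splicing gene that also acts in the male germline, with 36.5 and 38.2 FPKM in bam against 79.4 and 78.1 in wt (-1.06).

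Nucleotide synthesis genes were higher in 18 of 21 cases, with a median of 2.95 (1.68). The ribonucleotide reductase subunits RnrL and RnrS, which make deoxyribonucleotides, had 91.8 and 87.4 FPKM, and 148 and 152 FPKM, in bam against 2.44 and 2.79, and 4.92 and 5.97, in wt. CTPsyn had 120.1 and 119 FPKM against 4.15 and 3.00 (4.73). These 3 were chosen after their values were seen. CG16758, a purine nucleoside phosphorylase of the salvage pathway, went the opposite way with 24.7 and 30.5 FPKM in bam and 453 and 433 in wt (-3.96), and Dhod, the mitochondrial step of pyrimidine synthesis, had 67.7 and 65.7 against 225 and 241 (-1.79). Ts, Prat and ras were listed at 0 in both wt libraries, and all 3 share exons.

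Growth signalling genes were higher in 16 of 19 cases, with a median of 1.88 (0.61). dm, the fly Myc gene, had 142 and 132 FPKM in bam and 7.64 and 6.58 in wt (4.09, SE 0.19). Tor, the growth kinase, had 42.4 and 40.2 against 3.93 and 5.12 (2.94), and raptor, its partner, had 27.4 and 25.3 against 1.497 and 1.84 (3.36). Pdk1, which phosphorylates Akt, fell with 48.5 and 47.5 FPKM against 116 and 137 (-1.37).

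**Figure D4:**
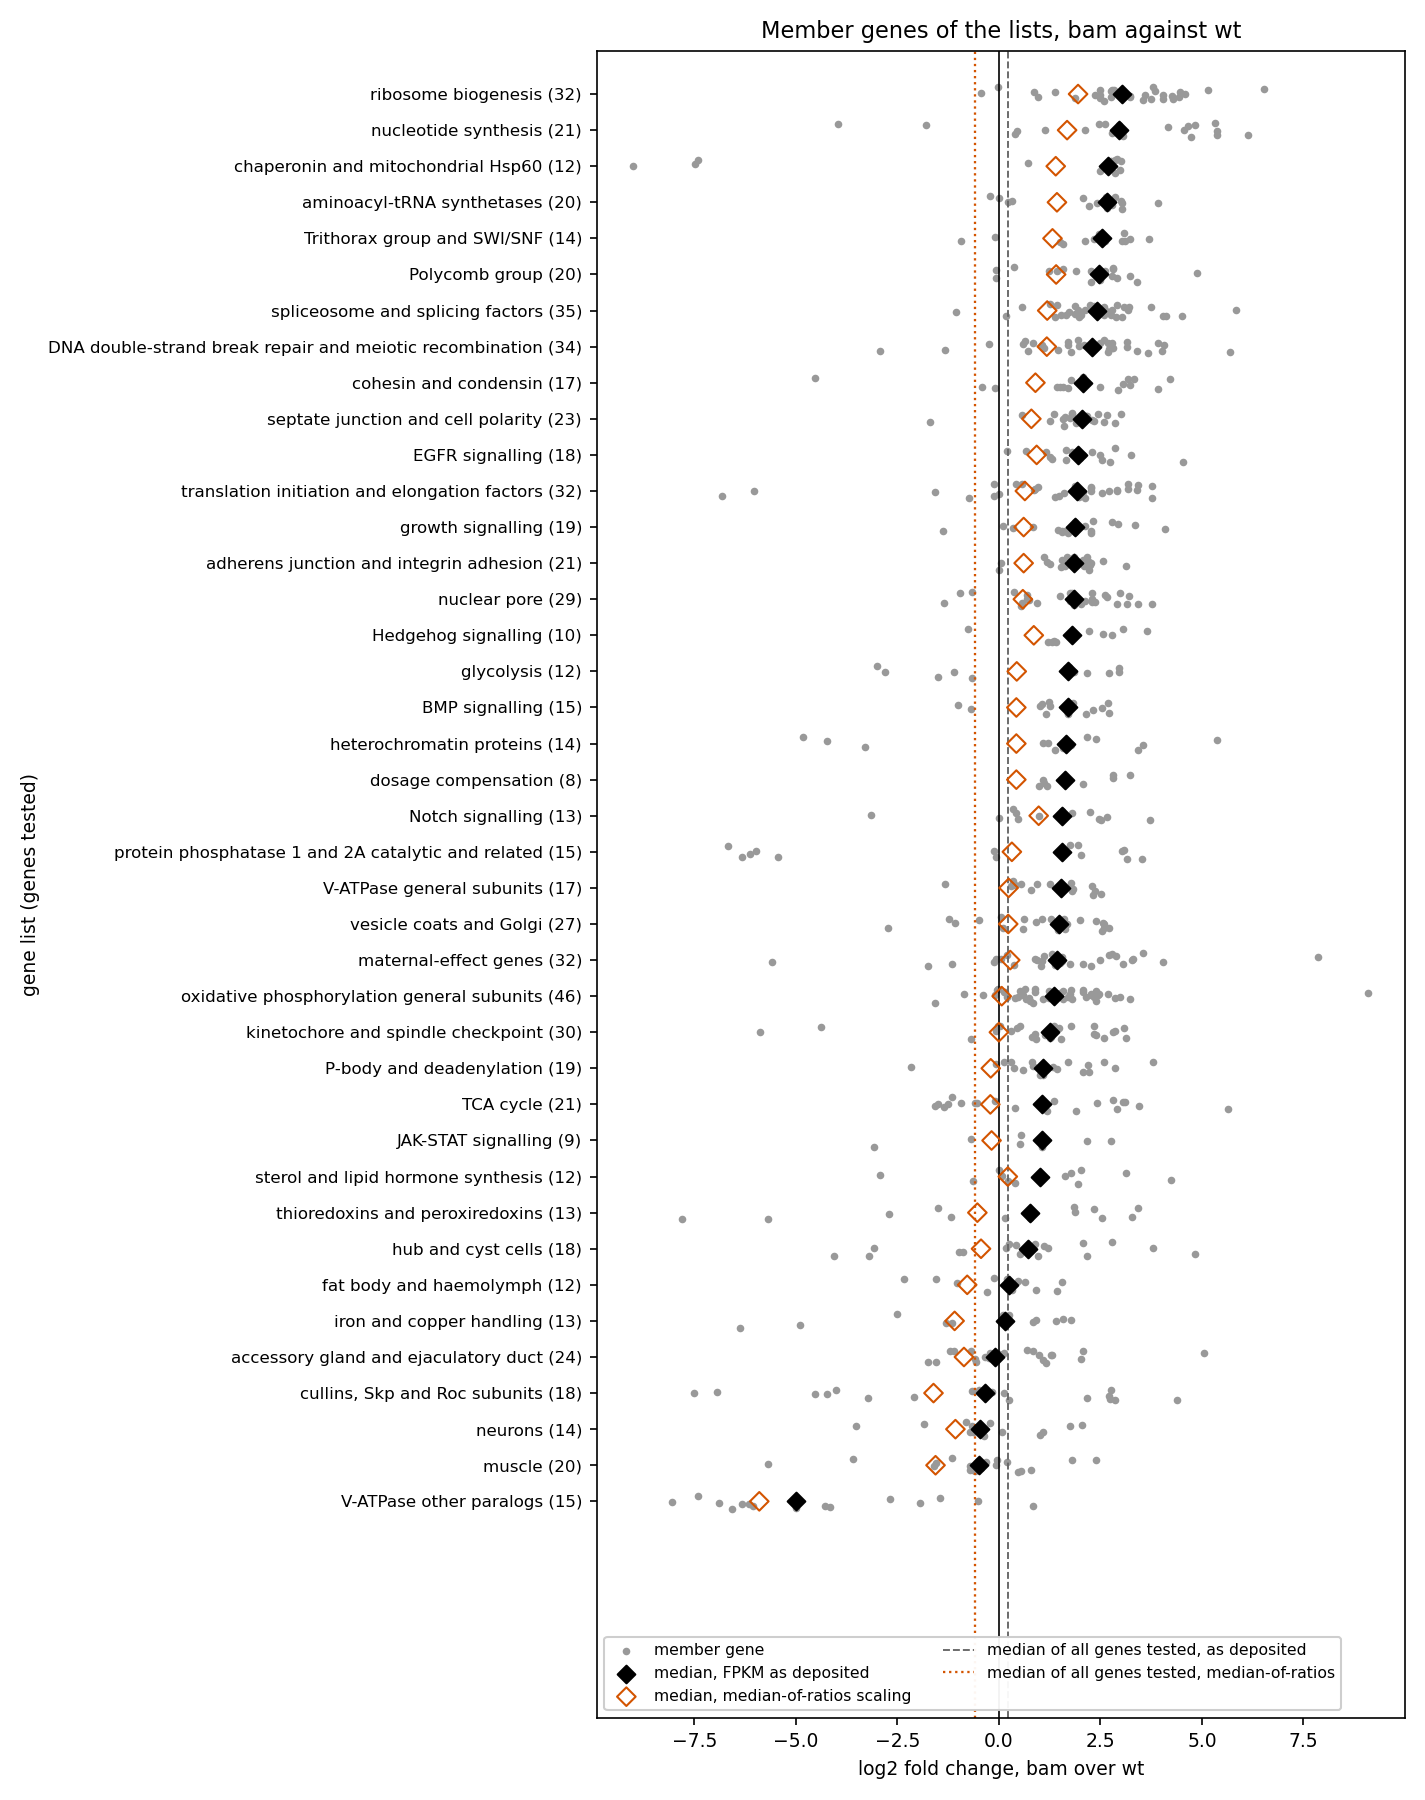
Log2 fold change of bam over wt (horizontal axis) for the member genes of the 40 lists (vertical axis, number of genes tested in brackets). Grey points are genes, black diamonds are list medians with FPKM as deposited, and open orange diamonds are medians with median-of-ratios scaling; the vertical lines mark 0 and the medians of all genes tested, 0.22 (dashed) and -0.58 (dotted). The medians as deposited run from 3.03 for ribosome biogenesis down to -0.33 for cullins, -0.48 for muscle genes and -5.0 for the other V-ATPase copies. Medians include genes listed at 0 in a genotype.

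Genes of the nucleus and its chromosomes were also higher in bam. Of 29 nuclear pore genes 26 were higher and 3 lower, with a median of 1.85 (0.59). Nup205, of the inner ring of the pore, had 45.8 and 43.3 FPKM in bam and 2.06 and 2.62 in wt (3.77). Nup54, Nup58 and CG14215 were lower; Nup58, which with Nup54 and Nup62 lines the central channel, had 27.5 and 30.5 FPKM against 72.6 and 77.6 (-1.34). Nup62 had 69.8 and 66.3 against 42.8 and 40.2, a rise of 0.70 that became -0.58 with median-of-ratios scaling. Cohesin and condensin genes were higher in 14 of 17 cases, with a median of 2.08 (0.90). The condensin subunit Cap-D2 had 58.3 and 59.3 FPKM in bam against 2.05 and 2.37 in wt (4.22), and glu, another, had a mean of 105.8 FPKM in bam and 6.13 in wt (3.91). Another condensin subunit, Cap-G, had 28.8 and 30.5 against 37.8 and 42.3 (-0.42), and barr had 49.1 and 48.1 against 55.2 and 49.0 and was not called, so the subunits of condensin did not move together.

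Kinetochore and checkpoint genes were higher in 24 of 30 cases with a median of 1.26, which became 0.00 with median-of-ratios scaling. Only 9 of the 30 were higher with both scalings, near the 26.4% of all genes tested. Zw10 had 40.2 and 37.9 FPKM in bam and 2.95 and 4.76 in wt (3.07). fzr2, a copy of the anaphase-promoting complex activator rap (fzr), had 0.982 and 0.121 FPKM in bam and 85.2 and 88.9 in wt (-5.88), and aust, a testis copy of borr, was listed at 0 in bam with 20.7 and 18.7 FPKM in wt.

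DNA double-strand break repair and meiotic recombination genes were higher in 31 of 34 cases, with a median of 2.30 (1.18), although Drosophila males do not recombine. c(3)G, a central protein of the synaptonemal complex known from female meiosis, had 86.8 and 88.2 FPKM in bam and 4.88 and 4.11 in wt (4.01, SE 0.60). mre11, a nuclease of break repair, had 62.0 and 57.4 against 2.13 and 3.15 (4.07). ord, needed for cohesion in meiosis of both sexes, had 140.1 and 143 FPKM against 20.4 and 18.6 (2.80); it was chosen after its values were seen. mei-218, a recombination gene of the female germline, was the sole member lower in bam, with 22.1 and 19.0 FPKM against 155 and 169 (-2.92); it shares exons with another gene. Of the 34 genes 23 share exons or could not be looked up, and among the 11 that share none 10 were higher.

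Genes named for maternal effects were higher in 25 of 32 cases with a median of 1.44 (0.28), 15 of them with both scalings. gnu, a regulator of embryonic nuclear cycles, had 20.5 and 23.3 FPKM in bam and 0.831 and 1.04 in wt (3.56). nos, the germline translational repressor, had 237 and 222 FPKM in bam and was listed at 0 in both wt libraries. exu, an RNA localization factor with a transcript of its own in the male germline, had 26.4 and 24.9 against 1253 and 1291 (-5.58). osk and bcd, whose RNAs are localized in the oocyte, stayed under 1.1 FPKM in all 4 libraries.

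Chromatin regulators were higher in bam on all 4 lists that hold them. Of 20 Polycomb group genes 18 were higher and none lower, with a median of 2.46 (1.41), and of 14 Trithorax group and SWI/SNF genes 12 were higher and 1 lower, with a median of 2.53 (1.32). jing had 31.6 and 25.1 FPKM in bam and 1.68 and 1.80 in wt (3.41), and Sfmbt, of the complex that binds Polycomb response elements, had 84.9 and 80.4 against 8.25 and 7.67 (3.22). polybromo, of the PBAP remodeller, had 56.7 and 49.8 against 3.11 and 3.23 (3.70), while ash1, a histone methyltransferase, fell with 17.97 and 15.6 against 31.9 and 34.1 (-0.94). All 8 dosage compensation genes were higher, with a median of 1.63 (0.43), 4 of them with both scalings; roX1, a noncoding RNA of the X chromosome, had 66.6 and 85.1 FPKM in bam and 12.8 and 7.67 in wt (2.80).

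Heterochromatin proteins were higher in 11 of 14 cases, with a median of 1.66 (0.43). HP1D3csd, a chromoshadow relative of rhino, had 92.7 and 98.7 FPKM in bam and 0.633 and 2.36 in wt (5.37, SE 0.37, adjusted p = 5.64e-07, limma), and wde, a partner of the methyltransferase egg, had 90.9 and 91.8 against 6.55 and 7.30 (3.54). HP1e, known as a paternal effect gene, went the other way with 0.657 and 0 FPKM in bam and 36.1 and 35.2 in wt (-4.83). Lhr and Su(var)3-9 were listed at 0 in both bam libraries, with 19.1 and 16.6 FPKM, and 7.93 and 9.74 FPKM, in wt; both share exons.

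Signalling genes that act between the soma and early germ cells were mostly higher in bam with FPKM as deposited. EGFR signalling had 16 of 18 higher (12 with both scalings) and none lower, with a median of 1.95 (0.93). stet, a rhomboid protease that releases the ligand from germ cells, had 70.5 and 64.9 FPKM in bam and 1.82 and 2.10 in wt (4.54, SE 0.15). rl, the MAP kinase gene, had 74.1 and 81.6 against 7.67 and 6.90 (3.25). BMP signalling had 11 of 15 higher (7 with both scalings) and 1, the ligand gene dpp, lower, with a median of 1.69 (0.43). The 15 include bam itself, which was not called, and the stage marker bgcn, which counts among the 11. dpp had 3.41 and 3.82 FPKM against 6.92 and 5.91 (-0.68), and the receptor gene put had 49.4 and 48.6 against 6.26 and 6.90 (2.72).

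JAK-STAT signalling had 7 of 9 higher and 2 lower. Only 2 of the 9, Stat92E and zfh1, were higher with both scalings, beside 26.4% of all genes tested. The median of 1.05 became -0.18 with median-of-ratios scaling. Stat92E, the transcription factor, had 151 and 153 FPKM in bam and 21.2 and 21.8 in wt (2.77). os, a gene of the ligand family (unpaired), had 0.440 and 0.483 FPKM against 11.3 in both wt libraries (-3.07, SE 0.23). Hedgehog signalling had 9 of 10 higher (5 with both scalings) with a median of 1.81 (0.86), among them ihog, a co-receptor, with 13.4 and 12.3 FPKM against 0.658 and 0.679 (3.05); the receptor gene ptc was lower, with 1.90 and 2.29 against 4.27 in both wt libraries. Notch signalling had 10 of 13 higher (7 with both scalings) and 1 lower, with a median of 1.56 (0.98). The receptor gene N had 22.6 and 17.5 FPKM against 2.14 and 2.41 (2.67), and the ligand gene Ser had 0.152 and 0.0793 against 9.04 and 8.77 (-3.15).

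Cell contacts followed. Of 23 septate junction and polarity genes 22 were higher and 1 lower, with a median of 2.05 (0.80), and of 21 adherens junction and integrin genes 18 were higher and none lower, with a median of 1.86 (0.61). dlg1, a scaffold of the junction, had 66.9 and 63.0 FPKM in bam and 6.83 and 7.61 in wt (3.01). arm, the beta-catenin gene, had 203 FPKM in each bam library and 32.7 and 33.7 in wt (2.57), and mys, the beta integrin gene, had 88.0 and 87.8 against 17.9 and 16.7 (2.28). nrv2, a beta subunit of the sodium pump, fell with 64.1 and 72.4 against 223 and 224 (-1.70), while the alpha subunit gene Atpalpha, chosen after its values were seen, had 170.5 and 229.5 against 38.7 and 40.3 (2.30).

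Markers of the somatic hub and cyst cells were more mixed than these lists. Their summed level over 18 genes was 391 and 434 FPKM in bam against 145 and 138 in wt. Of the 18, 10 were higher, 5 lower and 3 not called, where 44.3% of all genes tested were higher and 34.4% lower. The median log2 fold change of 0.71 became -0.44 with median-of-ratios scaling, beside 0.22 and -0.58 for all genes tested. The sums are led by genes that germ cells also use, such as piwi, with 187 and 202 FPKM in bam against 6.10 and 5.77 in wt. tj, a transcription factor of early cyst cells, had 12.2 and 16.1 against 1.31 and 1.05 (2.79), whereas eya, of later cyst cells, had 11.98 and 14.4 against 11.2 and 10.7 and was not called. The part of these cells in the signalling and contact lists was not tested.

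Genes of RNA turnover and the secretory pathway were mostly higher in bam. P-body and deadenylation genes had 16 of 19 higher, but 7 with both scalings, and their median of 1.08 became -0.20. Ge-1, a scaffold of decapping, had 58.0 and 57.2 FPKM in bam and 3.14 and 3.31 in wt (3.79). twin, the deadenylase of the CCR4-NOT complex, was the sole gene lower, with 104 and 91.3 FPKM against 427 and 457 (-2.17). Its partner Not1 had 166 and 153 FPKM against 138 and 154 and was not called. Vesicle coat and Golgi genes had 21 of 27 higher (13 with both scalings) and 4 lower, with a median of 1.49 (0.23). The COPI subunit alphaCOP had 85.2 and 100.4 FPKM in bam and 14.0 and 12.9 in wt (2.70), and Golgin84, a tether of the Golgi, had 16.5 and 15.0 against 121 and 100.4 (-2.73).

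Gene families picked by symbol had members at both ends, where 44.3% of all genes tested were higher and 34.4% lower. Of 32 genes with a Rab symbol, 20 were higher and 11 lower, the latter near the background. The median of 0.89 became -0.33 with median-of-ratios scaling. Those lower included 5 of the Rab9 group, Rab9D, Rab9Db, Rab9E, Rab9Fa and Rab9Fb, all listed at 0 in both bam libraries; Rab9Fb had 26.1 and 32.2 FPKM in wt. Tetraspanins had 18 of 29 higher and 4 lower; Tsp66A had 0.139 and 0 FPKM in bam and 102 and 99.2 in wt, and Tsp33B had 0.318 and 0.583 against 69.5 and 66.8. Glutathione S-transferases had 16 of 32 higher, near the background, and 6 lower. Of the 4 bestrophin channels 2 were higher and 2 lower: Best1 had 22.8 and 20.4 FPKM in bam against 3.75 and 2.45 in wt and Best2 had 24.6 and 34.3 against 10.47 and 8.11, while Best3 had 0 and 0.0940 in bam against 34.3 and 33.1 in wt. Of 68 genes with a symbol of the P450 type, 25 were higher and 16 lower, shares under those of all genes; 1 of the 25 is Cyp1, a cyclophilin gene and no P450.

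Families expressed in sense organs and cuticle were low in both genotypes and had few rises. Pickpocket channels had 7 of 15 lower and none higher, odorant-binding proteins 12 of 29 lower and 2 higher, and cuticular proteins 13 of 29 lower and 1 higher, where 34.4% of all genes were lower and 44.3% higher. Their median levels were 0.322, 0.212 and 0 FPKM in bam and 1.42, 2.39 and 1.01 in wt. Obp50c, Obp56i, ppk20 and ppk30 were among the members with the largest falls.

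The accessory gland markers set 1 library apart. The summed FPKM of 25 accessory gland and ejaculatory duct genes was 596 and 1170 in bam, 8320 in wt replicate 1 and 101 in wt replicate 2. The seminal fluid gene Mst57Db alone had 4292 FPKM in wt replicate 1 and 0 in wt replicate 2, against 183 and 409 in bam. Of these genes 23 of 24 tested were not called. Muscle genes summed to 436 and 520 FPKM in bam and 710.0 and 701 in wt, but the lower sums in bam rest on 1 gene. Act87E, an actin gene, had 4.39 and 6.07 against 311 and 322 (-5.69) and shares an exon with another gene. Without it the muscle sums would not be lower in bam. Of 15 muscle genes that share no exon, 2 were higher and 3 lower. Mhc, the muscle myosin gene, had 8.54 and 10.47 against 13.8 and 16.8 and was not called. Fat body and neuronal marker sums lay between 48.6 and 85.3 FPKM in all 4 libraries, higher in bam in both cases. Each of these sums was led by 1 gene. Syx1A, on the neuronal list, had 56.1 and 51.25 FPKM in bam and 14.44 and 16.19 in wt, and shares an exon. On the fat body list, bmm had 45.36 and 45.95 against 15.89 and 17.02. Of 8 neuronal genes that share no exon, 1 was higher and 5 were lower. Of 9 such fat body genes, 4 were higher and 1 was lower. With wt replicate 1 left out, 9943 genes were called in place of 10292.

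The genes with the largest rises, among those above 0 in both wt libraries, included several of unknown function. CG14545 had 260.2 and 258 FPKM in bam and 2.16 and 1.21 in wt (6.62, SE 0.42). Df31, a chromatin decondensation factor, was the most abundant of the 10, with 1296 and 1289 FPKM against 18.8 and 20.7 (5.97, SE 0.08, adjusted p = 9.20e-12, limma). CG15398 (Trf5) had 87.1 and 88.9 against 0.979 and 0.308 (5.79). The list went on with CG4570, CG32625, rhi and zpg and with Pxt, a peroxidase known as the fly cyclooxygenase, at 54.9 and 56.9 FPKM against 0.206 and 0.290 (5.51). Among genes above 0 in both bam libraries, the 10 largest falls included loopin-1 and the sperm leucyl aminopeptidase genes S-Lap1, S-Lap4, S-Lap7 and S-Lap8; S-Lap1 was at 1.59 and 0.0801 FPKM against 4064 and 4111 (-11.26).

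Transcripts of 1 gene could also differ in direction. The authors' deposited table compares 21081 transcripts between bam and wt and tested 13719 of them, of which 6060 (44.2%) were significant, 3147 higher and 2913 lower in bam. In the authors' deposited table, 48 of 2139 genes with at least 2 tested transcripts (2.24%) had 1 transcript at least 2-fold higher and another at least 2-fold lower. The values that follow are the authors' means, with no replicate error.

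Enolase led the set. In the authors' deposited table Eno transcript RC had 34.7 FPKM in bam and 3.75 in wt (log2 3.21, q = 0.0323), and transcript RB had 5.45 and 182 (log2 -5.06, q = 0.000197). The gene as a whole fell by 0.66 on the log2 scale, and enolase has no copy on the list of pairs. Citrate synthase has a copy as well: per the authors' deposited table kdn transcript RA had 89.9 FPKM in bam and 14.8 in wt (2.60) and RB had 3.65 and 76.1 (-4.38), beside the gene copy CG14740, which had 0.0932 and 0 in bam and 367 and 369.6 in wt. The mitotic cyclin gene CycB had RA at 35.3 FPKM in bam and 4.73 in wt (2.90) and RD at 6.91 and 104 (-3.92) in the authors' deposited table.

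The others of the 8 with the largest smaller change were Fem-1, Hsf, Tailor, CG10492 and heph. In the authors' deposited table the heat shock factor gene Hsf had RA at 41.3 and 4.86 FPKM and RB at 2.68 and 17.6. Tailor, a uridylyltransferase that tags RNAs for decay, had RB at 31.5 and 5.08 FPKM and RA at 1.56 and 101 in the authors' deposited table. For the splicing regulator gene heph the authors' deposited table gives a log2 fold change of 2.42 for RE and -2.93 for RA. Division of reads among transcripts of a gene is an estimate, and its error is not in the table.

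**Figure D5:**
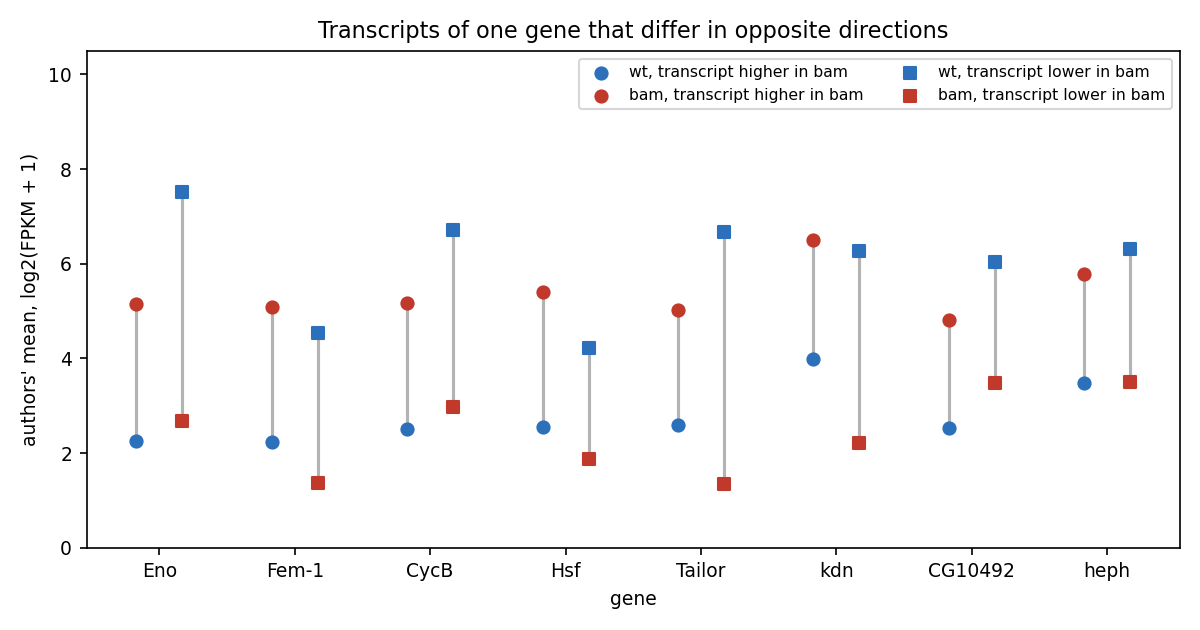
The authors' mean level of 2 transcripts per gene, as log2(FPKM + 1) (vertical axis), for the 8 genes with the largest opposite changes (horizontal axis). Circles are the transcript higher in bam and squares the transcript lower in bam, red for bam and blue for wt; in each gene the red circle is above the blue one and the red square under the blue one.

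The comparison of mip40/bam with CG9879 gave values of the same kind. There 5739 genes (43.9%) were called higher and 4464 (34.1%) lower in mip40/bam. Higher in both comparisons were 5042 genes, 87.1% of those higher in bam and 87.9% of those higher in mip40/bam; lower in both were 3931 genes, 87.4% and 88.1%. Called in opposite directions were 139 genes (2.40% of those higher in bam) and 127 genes (2.82% of those lower in bam). The pair ratios were lower in 63 of 66 pairs (95.5%) with a median difference of -8.95. For skpC the ratio was there higher by 0.95 (adjusted p = 0.00293, limma) and for skpE by 2.53.

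List medians in mip40/bam against CG9879 were 3.32 for ribosome biogenesis, 3.38 for nucleotide synthesis, 2.69 for aminoacyl-tRNA synthetases and 2.51 for splicing, beside 0.13 for all genes tested. Other lists had a smaller median than in bam against wt, with 0.32 for JAK-STAT signalling, 0.63 for P-bodies and 0.76 for maternal-effect genes. Tpi had 46.4 and 46.3 FPKM in mip40/bam and 324 and 357 in CG9879 (-2.85), and Pfk had 30.9 and 28.96 against 222 and 225 (-2.86), so both were lower there too.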

How the data were processed

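Testis RNA was sequenced after TruSeq library preparation on a MiSeq, per the labels' protocols. FPKM values per gene and library were deposited by the authors, who used TopHat and Cufflinks per the submitters' processing notes, which name the builds dm3 and dm6. The authors' deposited table of bam against wt gives FPKM, log2 fold changes and p-values and q-values per transcript from Cuffdiff. No source used here states the versions of these tools.

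Tables were joined by gene symbol over 16192 genes. Genes with at least 1 FPKM in 2 libraries were fitted in limma 3.58.1 (R 4.3.3) with a trend on log2(FPKM + 1) over 14 libraries in 7 groups, and p-values were adjusted by the Benjamini-Hochberg method over 13076 genes. The ratios of 66 pairs were fitted over the same 14 libraries but without a trend, and their p-values were adjusted over the 66 pairs. The FPKM files hold no counts, so numbers of fragments were inferred from the deposited confidence bounds, as if these held counting error only. For some genes the bounds appear to hold more. In bam replicate 1, Ef1alpha48D at 5830 FPKM implied 2295 fragments and Pp1-87B at 332.1 FPKM implied 5815. The inferred numbers can therefore be too low. In simulated data for 13076 genes with 200 changed, 79% of 2-fold and 96% of 4-fold changes were recovered, with 4.37% false calls. In bam against wt far more genes were called, 5792 higher and 4500 lower. The simulated rates are not split by expression level. They therefore cannot give the recovery in the real data, least of all for genes of low FPKM. Shared exons were looked up in the annotation BDGP6.54. Tables and plots used Python 3.11.15, numpy 2.4.6, pandas 2.3.3 and matplotlib 3.10.9.

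The pairs, the 40 lists and the 11 families were chosen with earlier results of these data known, and so was the comparison. For each list the called members with the largest rise and fall, at 5 FPKM or more in 1 group, and up to 2 further ones are named, with the 10 largest rises and falls at 20 FPKM or more, any pair, and bam. Outside that rule, and chosen after their values were seen, are Aats-met, Aats-trp, Ald, Atpalpha, CG14215, CG5432, CG6439, CTPsyn, Cap-G, Cul3, Cul4, Dhod, Eno, Gapdh2, Mhc, Mst57Db, Nop56, Not1, Nup54, Nup62, Pgi, PpD5, PpD6, the Rab9 genes other than those with the largest falls, RnrL, RnrS, Su(var)3-9, U2af50, Cyp1, Vha68-1, barr, bcd, eya, mts, nop5, ntc, ord, osk, ptc, ras, tj and the stage markers. Syx1A and bmm were also chosen after their values were seen. Promoter and protein sequences were not used here.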

Additional observations from a re-analysis of the deposited data

How the results depend on the processing

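Relative scaling of the libraries matters most. Median-of-ratios scaling called 3455 genes higher and 6389 lower in bam, and 3422 higher in mip40/bam. With that scaling the log2 fold change changed sign for Aats-trp (-1.05), CG8335 (-0.42), Fer1HCH (-1.06), Hsp60 (-0.57), Not1 (-1.16), Nup62 (-0.58), Tom20 (-0.57), Tom40 (-0.73), U2af50 (-1.10), aly (-0.70), bcd (-0.53), bgcn (-0.23), eya (-0.97) and kdn (-0.21). With quantile normalization it changed sign for Kr-h2 (0.18), SdhA (0.06), dpp (0.05), osk (0.57) and ptc (0.38). Restriction to protein-coding genes that share no exon tests fewer genes. It called 6161 genes in bam against wt, 3452 higher and 2709 lower, and 6098 in mip40/bam against CG9879, 3403 higher and 2695 lower, with 430 list members and 37 pairs. With both transcripts at least 4-fold changed, a limit that was not planned, 20 genes remained.

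Leaving out 1 library at a time gave 9822 to 9955 called genes in bam against wt, 5480 to 5624 of them higher and 4327 to 4413 lower, and 62 pairs. A fit with the replicate number as a block called 10294 genes, 5791 higher and 4503 lower, and 62 pairs. The numbers do not pair the samples: deviations of same-numbered libraries correlated at -0.0834 for bam and wt and -0.0172 for mip40/bam and CG9879. With 2 libraries a group and inferred depths of 3210000 to 4910000 fragments, genes near 0 FPKM rest on few fragments.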
